A study of Mus musculus with 28 samples.

Results

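The aryl hydrocarbon receptor (AhR) pathway was read here through 7 mouse genes: the cytochrome P450 genes Cyp1a1, Cyp1a2 and Cyp1b1, the receptor gene Ahr, its partner gene Arnt, and the feedback genes Ahrr and Tiparp. Members were the probes whose RefSeq accession belongs to 1 of these genes. They numbered 11 of 55681 probes, and 7 of the 37208 genes and transcripts on the array. Cyp1a1, Cyp1a2 and Cyp1b1 had 1 probe each, and Ahr, Arnt, Ahrr and Tiparp had 2 each. Liver RNA of 28 male mice was measured, 1 array per animal, to compare phenobarbital (PB), a barbiturate that activates the nuclear receptor CAR, with control diet. CD-1 mice, an outbred stock, received 1500 ppm PB (n = 4) or 0 ppm (n = 4) in the diet for 7 days. hCAR/hPXR mice, which are humanized for the nuclear receptors CAR and PXR, received 1000 ppm (n = 7) or 0 ppm (n = 7) for 7 days. C3H mice (C3H/HeNCrlCrlj) received 500 ppm (n = 3) or 0 ppm (n = 3) for 27 weeks, and both C3H groups had first been given 90 mg/kg of the liver carcinogen diethylnitrosamine. The labels give no ages, do not say whether the C3H liver held tumour tissue, and do not tie replicate numbers to litters or cages. Strain and dose differed between all 3 experiments, and C3H mice also differed in duration and in diethylnitrosamine, so the parts of these in any difference between the experiments cannot be told apart.

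AhR is a ligand-activated transcription factor that waits in the cytosol with the chaperone HSP90 and the cochaperone p23. With a ligand bound it enters the nucleus, pairs with ARNT and binds xenobiotic response elements, whose core is GCGTG. CYP1A2 metabolises caffeine and aromatic amines and is made constitutively by pericentral hepatocytes. CYP1A1 is scarce in untreated liver and strongly inducible, and CYP1B1 is mainly an enzyme of other tissues. AHRR competes with AhR for ARNT, and TIPARP, a mono-ADP-ribosyltransferase, marks AhR and dampens its activity, so both close a feedback loop.

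Cyp1a1 and Cyp1a2 lie head to head on chromosome 9 in GRCm38.p6, on opposite strands, with start sites 13958 bases apart. Promoter windows of 300 bases, from 250 before to 50 after the start site, were taken from RefSeq (GRCm38.p6) for 6 of the 7 members. Ahr had no entry. Windows are shown for Cyp1a1, Cyp1a2 and Tiparp, the AhR target genes called in C3H liver below. Capitals mark GCGTG, or CACGC where the core lies on the other strand. The windows are chr9:57697363-57697662 (plus strand) for Cyp1a1, chr9:57683606-57683905 (minus strand) for Cyp1a2 and chr3:65528197-65528496 (plus strand) for Tiparp.
Cyp1a1: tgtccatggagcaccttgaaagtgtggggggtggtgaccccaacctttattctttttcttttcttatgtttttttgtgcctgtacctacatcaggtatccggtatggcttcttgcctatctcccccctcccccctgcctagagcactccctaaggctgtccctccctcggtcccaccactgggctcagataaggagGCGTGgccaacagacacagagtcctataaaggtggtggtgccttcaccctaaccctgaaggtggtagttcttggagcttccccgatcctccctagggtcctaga
Cyp1a2: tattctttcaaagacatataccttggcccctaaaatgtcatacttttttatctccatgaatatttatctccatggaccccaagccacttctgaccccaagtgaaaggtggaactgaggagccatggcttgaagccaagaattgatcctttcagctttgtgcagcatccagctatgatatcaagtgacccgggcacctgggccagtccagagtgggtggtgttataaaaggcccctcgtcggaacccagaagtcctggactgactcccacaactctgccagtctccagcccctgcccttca
Tiparp: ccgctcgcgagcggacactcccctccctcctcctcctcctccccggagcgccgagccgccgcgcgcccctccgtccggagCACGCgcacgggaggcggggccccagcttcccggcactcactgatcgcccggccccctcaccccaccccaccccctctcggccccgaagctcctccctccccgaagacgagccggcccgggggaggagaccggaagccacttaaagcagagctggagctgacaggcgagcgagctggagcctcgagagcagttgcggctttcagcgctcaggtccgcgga
The Cyp1a1 window held 1 core on its own strand, the Tiparp window held 1 core on the other strand, and the Cyp1a2 window held 0. The Cyp1b1 and Arnt windows held 1 core each and the Ahrr window 3. Of 32851 windows of this length, 32.4% held a core on either strand. The longer form TNGCGTG, searched on both strands and overlapping the core, was in 5.07% of the windows and, among the members, in the Ahrr window alone. A match is a run of letters and not a measured binding site.

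Cyp2b10, the standard CAR target, rose in each experiment with PB and control animals apart, by 6.66 on the log2 scale in CD-1, 4.49 in hCAR/hPXR and 5.74 in C3H mice (limma adjusted p = 1.69e-05, 2.46e-09 and 0.000335). All values below are log2 processed signals with the array's 75th percentile set to 0, a scale on which different probes cannot be compared. Between 41.3% and 70.7% of probes per array carried the scanner software's mark for a signal well above background. All 4 CD-1 control arrays lay on slide 1 and all 4 CD-1 PB arrays on slide 2, so slide and PB cannot be told apart there. The 7 hCAR/hPXR controls shared slide 3 with PB animal 1, and PB animals 2 to 7 lay on slide 4. The 6 C3H arrays shared slide 5, with the controls and PB animal 1 in array row 1 and PB animals 2 and 3 in row 2. Array row and PB are thus partly tied there. In these bulk samples fewer cells of a type and less RNA per cell cannot be told apart.

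Cyp1a2 rose with PB in hCAR/hPXR and C3H liver and did not pass the test in CD-1 liver. In C3H mice it read 6.59, 7.25 and 7.20 in the 3 PB animals, against 5.10, 4.88 and 4.94 in the 3 controls. The groups lay apart by more than 1 log2 unit. The means were 7.01 ± 0.37 in PB and 4.98 ± 0.11 in controls (SD, n = 3 each). The difference was 2.04 ± 0.20 (SE), a 4.10-fold rise (limma adjusted p = 0.0036), and it passed with any 1 of the 6 animals left out (adjusted p from 0.000652 to 0.0257).

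Among hCAR/hPXR mice Cyp1a2 ran from 4.33 through a median of 4.71 to 5.13 in PB animals, against 2.72, 3.81 and 4.04 in controls. The lowest PB animal stood above the highest control, and control animal 1 at 2.72 stood well below the other 6. The difference was 1.04 ± 0.19 (SE, n = 7 each), a 2.06-fold rise (limma adjusted p = 0.000349). With slide as a block the difference was 0.72 and did not pass (adjusted p = 0.392). That value rests on PB animal 1, which read 4.38 beside the controls of its own slide. The slide-block values below for these mice likewise compare 1 PB animal with 7 controls and assume that it varies like the others.

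In CD-1 mice Cyp1a2 read 2.06, 2.85, 3.55 and 2.92 in the 4 PB animals, against 3.51, 2.64, 3.04 and 2.67 in the 4 controls. The groups overlapped over most of their range. The difference was -0.12 ± 0.34 (SE, n = 4 each, limma adjusted p = 0.843), with a 95% interval from -0.86 to 0.62. Its sign turned under quantile normalization (0.11) and without control 1 (0.060) or PB animal 1 (0.14), so no direction is given.

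**Figure D1:**
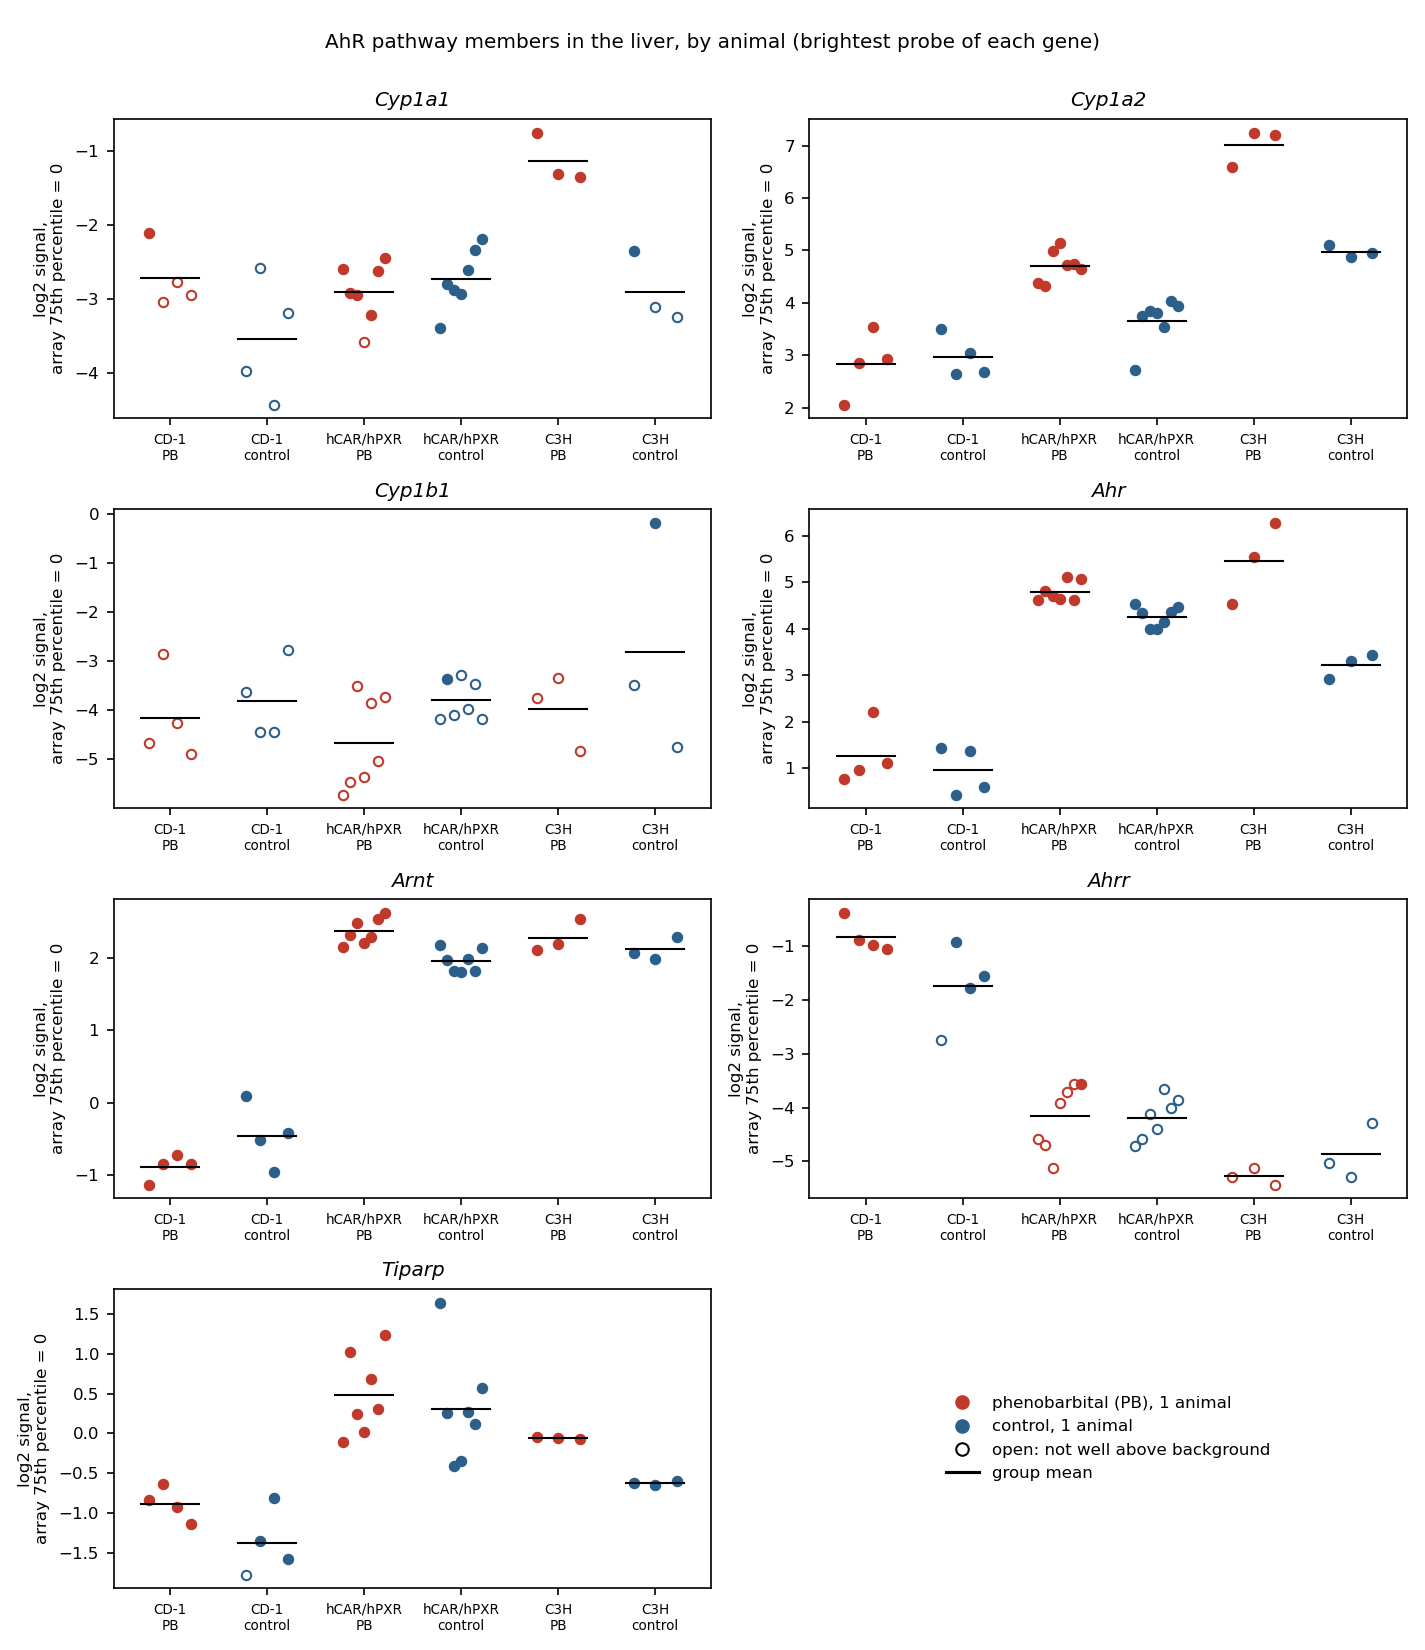
Each panel shows 1 member, with the log2 signal of its brightest probe on the vertical axis (array 75th percentile at 0) and the 6 groups along the horizontal axis. Points are animals, open where the spot was not well above background, and lines are group means; the 3 C3H PB animals stand above the 3 controls for Cyp1a2, Cyp1a1, Ahr and Tiparp.

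Cyp1a1, the classic sentinel of AhR activation, rose in C3H liver and did not pass in hCAR/hPXR liver. In C3H mice it read -0.75, -1.31 and -1.35 in PB animals, against -2.35, -3.12 and -3.25 in controls. The groups lay apart, and the spot was well above background on 3 of 3 PB arrays but on 1 of 3 control arrays. Cyp1a1 was thus tested through the PB group alone, where it is high, and its difference rests partly on control values near background. The difference was 1.77 ± 0.29 (SE, n = 3 each, limma adjusted p = 0.0159). It shrank to 0.58 with normexp background correction followed by quantile normalization, called normexp below (adjusted p = 0.0136). It missed the threshold without control 2, control 3 or PB animal 2 (adjusted p = 0.0571, 0.0651 and 0.0532) and when dim probes were tested too (0.0539).

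hCAR/hPXR mice showed no such step: Cyp1a1 ran from -3.58 through -2.92 to -2.45 in PB animals, against -3.39, -2.79 and -2.19 in controls. The groups overlapped almost fully, with a difference of -0.17 ± 0.20 (SE, n = 7 each, limma adjusted p = 0.478) whose sign turned under quantile normalization (0.020). In CD-1 mice the spot was well above background on 1 of 4 PB and 0 of 4 control arrays, and Cyp1a1 was not tested there. Its values there were -2.11, -3.04, -2.77 and -2.95 in PB animals and -3.97, -2.59, -4.44 and -3.19 in controls.

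Cyp1b1 was not well above background on every array of any group and was tested in none. It was marked on 2 of 28 arrays, 1 an hCAR/hPXR control and 1 a C3H control. The C3H control stood apart at -0.18, while the other 2 C3H controls read -3.49 and -4.74 and the 3 C3H PB animals -3.75, -3.35 and -4.82.

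Ahr, the receptor gene, rose in C3H and hCAR/hPXR liver. In C3H mice it read 4.54, 5.55 and 6.28 in PB animals, against 2.92, 3.30 and 3.44 in controls. The groups lay apart, with a wide spread among PB animals. The difference was 2.24 ± 0.43 (SE, n = 3 each), a 4.71-fold rise (limma adjusted p = 0.0237). The second Ahr probe gave 2.19 but was well above background on 2 of 3 PB and 0 of 3 control arrays and was not tested. The call was lost without control 1, 2 or 3 or PB animal 2 (adjusted p = 0.0868, 0.0702, 0.0802 and 0.085) and when dim probes were tested too (0.0721), while the difference stayed between 1.83 and 2.70 with 1 animal left out.

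In hCAR/hPXR mice Ahr ran from 4.62 through 4.71 to 5.12 in PB animals, against 3.98, 4.35 and 4.53 in controls. The groups lay apart by less than 0.1. The difference was 0.53 ± 0.11 (SE, n = 7 each, limma adjusted p = 0.00125), and the second probe gave 0.32 (adjusted p = 0.0103). With slide as a block it was 0.35 and did not pass (adjusted p = 0.494), nor did it pass in 1 fit of all arrays (0.0595). In CD-1 mice Ahr read 0.77, 0.97, 2.22 and 1.12 in PB animals, against 1.43, 0.43, 1.38 and 0.60 in controls. These groups overlapped, with a difference of 0.31 ± 0.37 (limma adjusted p = 0.607).

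Arnt, which encodes the dimer partner, rose by a small step in hCAR/hPXR liver and passed in neither of the other experiments. Among the hCAR/hPXR mice it ran from 2.15 through 2.32 to 2.63 in PB animals, against 1.80, 1.98 and 2.17 in controls. The ranges overlapped slightly, and the difference was 0.41 ± 0.09 (SE, n = 7 each, limma adjusted p = 0.00179). The second probe gave 0.40 (adjusted p = 0.00258). With slide as a block the difference was 0.19 (adjusted p = 0.662), and it was 0.24 under quantile normalization and 0.23 with normexp, still past the threshold. Arnt differed by 0.16 ± 0.16 in C3H (n = 3 each, limma adjusted p = 0.512) and by -0.44 ± 0.28 in CD-1 mice (n = 4 each, adjusted p = 0.332).

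Tiparp, an AhR target and feedback gene, rose in C3H liver by a small and even step. It read -0.04, -0.06 and -0.07 in the 3 PB animals, against -0.62, -0.65 and -0.60 in the 3 controls. Both groups were tight and lay apart. The difference was 0.57 ± 0.11 (SE, n = 3 each, limma adjusted p = 0.0229), and the second probe gave 0.56 (adjusted p = 0.0349). The step shrank to 0.25 with normexp (adjusted p = 0.0437). The call was lost when any of the 6 animals but PB animal 1 was left out (adjusted p from 0.0557 to 0.0865), when dim probes were tested too (0.119) and in 1 fit of all arrays, whose shared spread is wider (0.351).

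For Tiparp, values in hCAR/hPXR mice ran from -0.10 through 0.31 to 1.24 in PB animals, against -0.41, 0.26 and 1.64 in controls. The groups overlapped over nearly their whole range (0.19 ± 0.30, SE, n = 7 each, limma adjusted p = 0.605). In CD-1 mice it read -0.83, -0.64, -0.92 and -1.13 in PB animals, against -1.77, -1.35, -0.81 and -1.57 in controls. These groups overlapped at 1 control, with a difference of 0.49 ± 0.28 (n = 4 each, adjusted p = 0.274). The lowest control, at -1.77, was not well above background. The second Tiparp probe gave 0.09 in CD-1 mice, was well above background on 0 of 4 PB and 0 of 4 control arrays and was not tested.

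Ahrr, which encodes the repressor, was measurable in CD-1 liver alone, and there by 1 of its 2 probes. There it read -0.37, -0.87, -0.97 and -1.05 in PB animals, against -2.74, -0.91, -1.77 and -1.56 in controls. The groups overlapped, the lowest control was not well above background, and the difference of 0.93 ± 0.36 (SE, n = 4 each) did not pass (limma adjusted p = 0.126). With normexp it was 0.56 and passed (adjusted p = 0.0236). The second Ahrr probe was well above background on 1 of 4 PB and 0 of 4 control arrays in CD-1 mice and was not tested. In hCAR/hPXR mice Ahrr was well above background on 1 of 7 PB and 0 of 7 control arrays, and in C3H mice on 0 of 6.

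**Figure D2:**
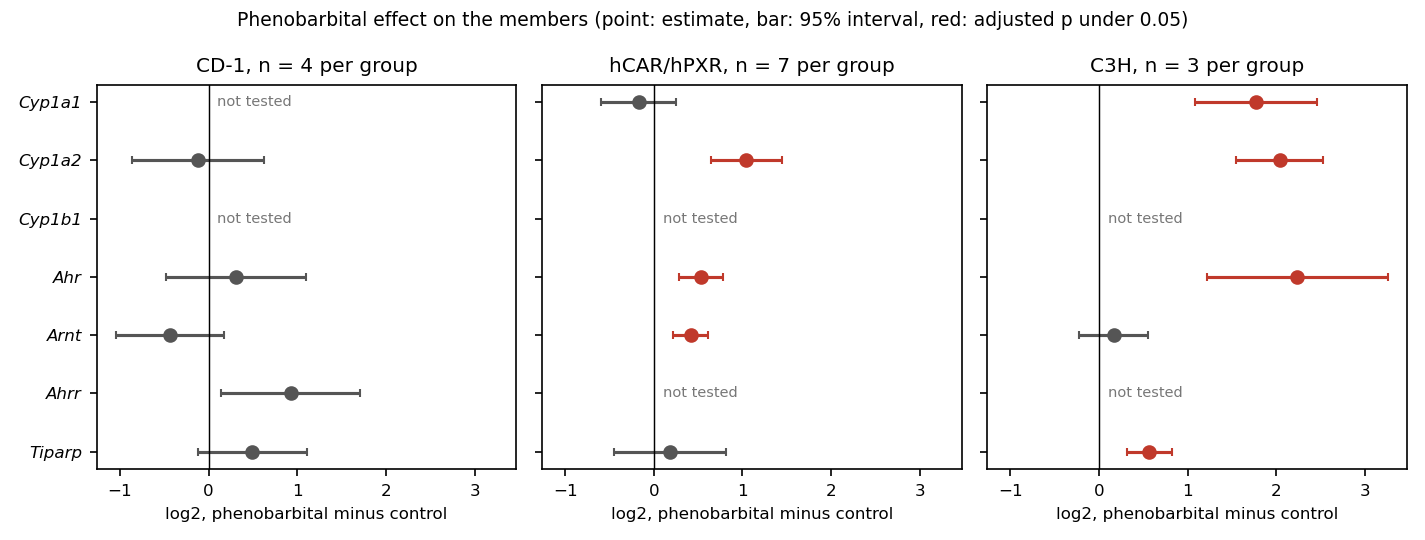
Each panel shows 1 experiment, with the log2 difference of PB minus control on the horizontal axis and the members down the page. Points are limma estimates and bars their 95% intervals, red where the adjusted p was under 0.05; 4 members are red in C3H, 3 in hCAR/hPXR and 0 in CD-1 mice.

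Counted together, 4 of the 5 tested members rose in C3H liver, against 7.38% of all 18274 genes tested there (14.7% passed in either direction). In hCAR/hPXR liver 3 of 5 rose, against 35.0% of 20040 (58.1% passed in either direction). In CD-1 liver 0 of 5 passed in either direction, against 7.98% of 23836, and Ahrr alone had an unadjusted p under 0.05. The hCAR/hPXR share is near its background for so few genes. With slide as a block, and so with 1 PB animal, the median of the 5 was 0.19, beside 0.05 over all genes tested. The C3H count holds Cyp1a1, which passed the filter on dim probes through the PB group, where it is high. It was 3 of 4 when both groups had to be well above background, where 14.4% of all genes passed in either direction. When dim probes were tested too it was 1 of 7, where 1.64% of all genes passed. Leaving out 1 C3H animal gave from 1 to 4 calls: 2 without control 1, 1 each without control 2, control 3 or PB animal 2, and 3 without PB animal 3. Over all genes, in either direction, 3.47% passed without control 1, 5.01% without control 2 and 3.07% without control 3. The share was 28.7% without PB animal 1, 3.47% without PB animal 2 and 6.10% without PB animal 3. Groups did not overlap, with PB higher, for 4 of 5 in C3H (17.3% of all genes), 2 of 5 in hCAR/hPXR (12.4%) and 0 of 5 in CD-1 mice (6.63%). The median difference of the tested members was 1.77 in C3H, 0.41 in hCAR/hPXR and 0.31 in CD-1, beside -0.05, 0.13 and -0.04 over all genes tested. With both groups well above background the medians were 1.30 over 4 members in C3H, 0.47 over 4 in hCAR/hPXR and -0.12 over 3 in CD-1 mice.

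Whether Cyp1a2 moved with other AhR targets was read from 11 further genes that AhR ligands are known to induce in rodents. In C3H liver, where 7.38% of all genes rose and 7.30% fell, 4 of 10 tested targets rose and 0 fell, with a list median of 0.86. Nqo1, a quinone reductase, rose by 2.73 ± 0.22 (SE, limma adjusted p = 0.00181). Gsta1, a glutathione transferase, rose by 1.86 ± 0.24 (0.00811), Xdh, xanthine dehydrogenase, by 1.26 ± 0.23 (0.0211) and Htatip2 by 1.28 ± 0.24 (0.0241). Aldh3a1, an aldehyde dehydrogenase, gave -0.53 ± 0.21 and did not pass (adjusted p = 0.134). Nqo1 and Gsta1 passed with any 1 C3H animal left out, while Xdh and Htatip2 each failed in 4 of the 6 such fits. The list count was 5 without PB animal 1, 3 without control 2 or PB animal 3, and 2 without control 1, control 3 or PB animal 2. Over all genes 28.7% passed in either direction without PB animal 1, and 3.07% to 6.10% with any other animal left out, against 14.7% with all animals. Nqo1 and Gsta1 are also known targets of the oxidant sensor NRF2, and Gsta1 of CAR.

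In hCAR/hPXR liver, where 35.0% of all genes rose and 23.2% fell, 6 of 10 tested targets rose and 1 fell. Gsta1 (3.71 ± 0.29, SE, limma adjusted p = 6.63e-07), Nqo1 (2.29 ± 0.25, 9.67e-06) and Htatip2 (1.18 ± 0.08, 2.18e-07) rose. PB animal 1 beside the 7 controls of its slide gave differences of 3.88 for Gsta1, 2.31 for Nqo1 and 0.97 for Htatip2. Aldh3a1 fell by 1.01 ± 0.19 (adjusted p = 0.000394). With slide as a block, and so with 1 PB animal, the list median was 0.38, beside 0.28 in the main fit.

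In CD-1 liver, where 1.85% of all genes rose, 1 of 7 tested targets rose and 0 fell. That was Gsta1 (3.80 ± 0.45, SE, n = 4 each, limma adjusted p = 0.000336), which thus rose in the experiment in which Cyp1a2 did not pass. Nqo1 was well above background on 0 of 8 CD-1 arrays and was not tested.

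**Figure D3:**
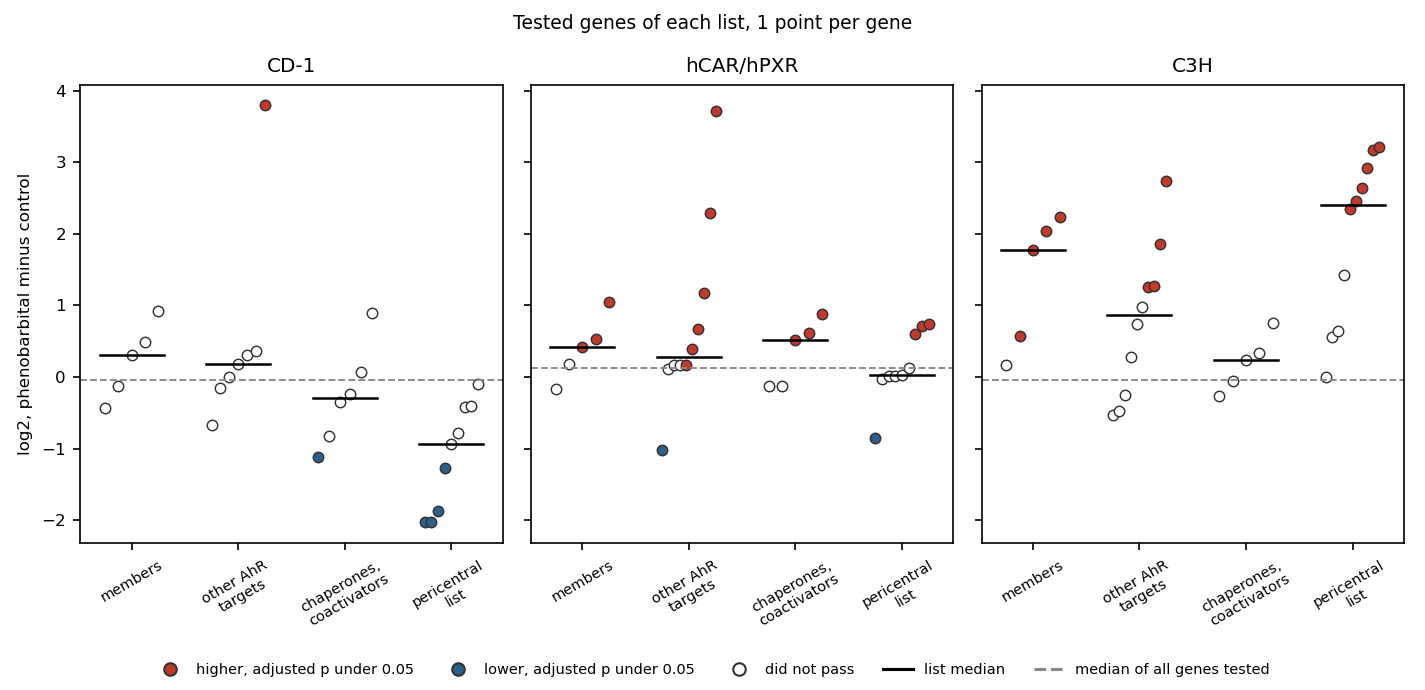
Each panel shows 1 experiment, with the log2 difference of PB minus control on the vertical axis and the tested genes of 4 lists along the horizontal axis, 1 point per gene. Filled points passed at an adjusted p under 0.05, solid lines are list medians and the dashed line is the median of all genes tested; the pericentral list lies mostly above 0 in C3H (median 2.40) and below 0 in CD-1 mice (median -0.94).

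The genes that hold or assist the receptor were a list of 7. In C3H liver 0 of 5 tested passed in limma, against 14.7% of all genes, with Hsp90aa1 at 0.76 ± 0.22 (SE, adjusted p = 0.0626). Without PB animal 1 the count was 2 of 5, against 28.7% of all genes. Both counts are near these shares for so few genes. In hCAR/hPXR liver 3 of 5 rose, against 35.0% of all genes, and the other 2, Ncoa1 and Ncoa2, did not pass. Under quantile normalization and with normexp the count was 3 higher and 2 lower, where 51.5% of all genes passed in either direction under each. Hsp90aa1 (0.88 ± 0.12, limma adjusted p = 4.36e-05), Hsp90ab1 (0.61 ± 0.08, 4.41e-05) and Ptges3, which encodes p23 (0.52 ± 0.09, 0.000198), rose with groups apart. With slide as a block, and so with 1 PB animal, the 3 differences were 0.41, 0.34 and 0.17. In CD-1 liver 1 of 6 fell, the coactivator Ncoa1 (-1.12 ± 0.32, limma adjusted p = 0.0496), where 6.13% of all genes fell. That call was lost in 7 of 8 fits with 1 animal left out (all but that without PB animal 3, adjusted p up to 0.137) and in 5 of 9 other settings. The mean of the Ncoa1 probes gave -0.44 (adjusted p = 0.382).

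Cyp1a2 is a pericentral gene, so 10 genes of that zone were set beside it. In C3H liver 6 of 10 rose and 0 fell, against 7.38% and 7.30% of all genes, with a list median of 2.40. The count holds Axin2, which passed the filter through the PB group alone, and was 5 of 9, with a median of 2.34, when both groups had to be well above background. Lgr5 rose by 3.21 ± 0.42 (SE, limma adjusted p = 0.00797), and Glul, glutamine synthetase, by 3.18 ± 0.29 (0.00277). Axin2, a beta-catenin target, was well above background on 3 of 3 PB and 0 of 3 control arrays and was at least 3.70-fold higher with PB (adjusted p = 0.00187). Slc1a2, a glutamate transporter, rose by 2.46 ± 0.30 (adjusted p = 0.0065). Cyp2e1, a pericentral P450, gave -0.0004 ± 0.33 (adjusted p = 0.999). The list count was 9 without PB animal 1, where 28.7% of all genes passed in either direction. It was 5 with any other animal left out, where 3.07% to 6.10% of all genes passed.

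In hCAR/hPXR liver 3 of 9 pericentral genes rose and 1 fell, against 35.0% and 23.2% of all genes. Oat, ornithine aminotransferase, rose by 0.60 ± 0.11 (SE, limma adjusted p = 0.000322), and Lgr5 fell by 0.86 ± 0.12 (4.71e-05). Glul gave 0.03 ± 0.11 (adjusted p = 0.835), with a sign that turned under several settings. With slide as a block, and so with 1 PB animal, the list median was -0.30, beside 0.03 in the main fit. Slc1a2, named after its value was seen, then gave -0.80. In CD-1 liver 0 of 9 rose and 4 fell, against 6.13% of all genes lower. The differences were -2.03 ± 0.36 for Slc1a2 (SE, limma adjusted p = 0.00487), -1.88 ± 0.37 for Glul (0.00876), -1.27 ± 0.26 for Oat (0.0109) and -2.03 ± 0.42 for Rnase4 (0.0111).

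Cell type markers moved too, and their part in these results was not tested. Sums are of signals in units of each array's 75th percentile. The 5 hepatocyte markers on the array summed to 2886 to 3390 in C3H PB animals and 4501 to 4951 in C3H controls. In limma 3 of 5 fell, against 7.30% of all genes. The 6 stellate and fibroblast markers summed to 8.18 to 24.8 in C3H PB animals and 4.90 to 9.80 in C3H controls. Of these, 0 of 4 tested passed, against 14.7% of all genes. Among 3 tested bile duct markers in C3H mice 1 rose, against 7.38% of all genes, and 1 fell, against 7.30%. The list median was -1.61. Krt19 rose by 2.90. Sox9 was at least 4.43-fold lower, being well above background on 0 of 3 PB arrays, and so was tested through the control group alone. The 5 Kupffer markers summed to 46.6 to 60.8 in C3H PB animals and 59.0 to 80.1 in C3H controls. Across hCAR/hPXR mice they summed to 75.3 to 154 in PB animals and 68.2 to 97.2 in controls, and 3 of 5 rose, against 35.0% of all genes. The 5 lymphocyte markers summed to 8.07 to 10.5 in hCAR/hPXR PB animals and 11.6 to 15.7 in hCAR/hPXR controls, apart, with 2 of 3 tested lower against 23.2% of all genes. Their sums were 9.10 to 10.3 in C3H PB animals and 12.0 to 14.1 in C3H controls, also apart. There 0 of 2 tested passed, against 14.7% of all genes. In CD-1 mice the lymphocyte sums overlapped (16.9 to 32.0 in PB animals and 21.8 to 44.1 in controls). There 1 of 3 was lower, against 6.13% of all genes. The 5 bile duct markers summed to 2.25 to 4.59 in hCAR/hPXR PB animals and 1.59 to 3.97 in hCAR/hPXR controls. Of 3 tested there, 2 were higher, against 35.0% of all genes. The 5 endothelial markers summed to 77.7 to 113 in C3H PB animals and 131 to 144 in C3H controls. Of these 5, 1 was higher and 1 lower in limma, against 7.38% and 7.30% of all genes, and 3 did not pass. The hepatocyte sum was 400 to 902 in CD-1 PB animals and 1096 to 2014 in CD-1 controls. There 2 of 5 were lower, against 6.13% of all genes. The neutrophil gene S100a8 rose by 6.67 in CD-1 mice, while S100a9 gave 0.62 and did not pass.

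The PB effect was then compared between experiments by interaction contrasts over all 28 arrays. These contrasts carry the slide layout of CD-1 and hCAR/hPXR mice with them. The Cyp1a2 effect was larger in C3H than in CD-1 mice by 2.16 ± 0.43 (SE, limma adjusted p = 0.0014), where 9.60% of all genes had a larger effect. It was larger in hCAR/hPXR than in CD-1 mice by 1.16 ± 0.35 (adjusted p = 0.0156, 19.5% of all genes larger), and this missed the threshold without CD-1 PB animal 1 (0.90, adjusted p = 0.0513). Between C3H and hCAR/hPXR mice it differed by 0.99 ± 0.38 and did not pass (adjusted p = 0.101, 4.16% of all genes larger). That last difference passed under quantile normalization (1.18, adjusted p = 0.0219), with normexp (1.18, 0.00907) and without hCAR/hPXR control 1 (1.15, 0.0342).

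The Ahr effect was larger in C3H than in CD-1 mice by 1.93 ± 0.46 (SE, limma adjusted p = 0.00653). It was larger in C3H than in hCAR/hPXR mice by 1.70 ± 0.41 (adjusted p = 0.00916), a call lost without C3H PB animal 3 (1.29, adjusted p = 0.06). It differed by 0.23 ± 0.38 between hCAR/hPXR and CD-1 mice and did not pass (adjusted p = 0.684; -0.35 under quantile normalization and -0.46 with normexp). The Cyp1a1 effect was larger in C3H than in hCAR/hPXR mice by 1.94 ± 0.45 (adjusted p = 0.00669). For C3H minus CD-1 it gave 0.94 ± 0.51 (adjusted p = 0.207) and for hCAR/hPXR minus CD-1 -1.0004 ± 0.42 (0.0718), neither of which passed. Both rest on CD-1 values near background, with Cyp1a1 well above background on 1 of 4 PB and 0 of 4 control arrays. They thus do not compare measured PB effects. Cyp1a1 entered the C3H minus CD-1 contrast through the C3H PB group alone, where it is high. The Arnt effect was larger in hCAR/hPXR than in CD-1 mice by 0.85 ± 0.22 (adjusted p = 0.00621). It did not pass for C3H minus CD-1 (0.60 ± 0.27, adjusted p = 0.132) or C3H minus hCAR/hPXR (-0.25 ± 0.24, 0.546). Tiparp effects did not differ past the threshold between any pair, with estimates of 0.38 ± 0.45 for C3H minus hCAR/hPXR, 0.07 ± 0.50 for C3H minus CD-1 and -0.31 ± 0.41 for hCAR/hPXR minus CD-1.

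Control levels of Ahr averaged 4.26 ± 0.22 in hCAR/hPXR, 3.22 ± 0.27 in C3H and 0.96 ± 0.52 in CD-1 controls (SD, n = 7, 3 and 4), and each neighbouring pair differed in limma (adjusted p = 0.00441 and 3.83e-07). The second Ahr probe read -4.55 in C3H and -3.87 in CD-1 controls, well above background on 0 of 3 and 0 of 4 arrays. Under other scalings and the mean of both probes the C3H minus CD-1 difference in Ahr ran from 0.79 to 2.26 and passed in each. Cyp1a2 averaged 4.98 ± 0.11 in C3H, 3.66 ± 0.45 in hCAR/hPXR and 2.96 ± 0.41 in CD-1 controls (SD). The C3H and hCAR/hPXR controls differed (1.31 ± 0.27, SE, adjusted p = 0.000256). The hCAR/hPXR minus CD-1 difference of 0.70 turned to -0.76 under quantile normalization and -0.78 with normexp. The C3H minus CD-1 difference of 2.01 (limma adjusted p = 6.91e-07) also hung on the scaling. It was 0.11 under quantile normalization and 0.03 with normexp and passed in neither (adjusted p = 0.661 and 0.915). Strain and array run cannot be told apart, and 88.2% of genes differed between hCAR/hPXR and CD-1 controls, 89.0% between C3H and CD-1 and 48.4% between C3H and hCAR/hPXR controls. The 99th percentile of signal was 3936 to 6346 on CD-1 arrays, 28983 to 45700 on hCAR/hPXR arrays and 21118 to 30286 on C3H arrays.

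Only the hCAR/hPXR groups held enough animals to set Cyp1a2 against other members animal by animal. Among 8 relations, 4 genes within PB and within control animals, none passed after Benjamini-Hochberg adjustment of exact permutation p-values (lowest adjusted p = 0.233). Within PB animals (n = 7) Cyp1a2 and Cyp1a1 gave Pearson's r = -0.60 (exact permutation p = 0.16, adjusted 0.319) and Spearman's rho = -0.61 (p = 0.167). Without animals 2 and 4, the farthest from the median, r was -0.45, and within slide 4 (n = 6) it was -0.53. Within control animals (n = 7) the same pair gave r = 0.79 (exact permutation p = 0.0292, adjusted 0.233) and rho = 0.64 (p = 0.139), and r was 0.80 without animals 1 and 5. Cyp1a2 and Tiparp gave r = -0.81 in controls (exact permutation p = 0.0687, adjusted 0.236; rho = -0.46, p = 0.302) but 0.29 without animals 1 and 5, so that relation rests on those 2 animals. In PB animals they gave r = -0.37 (exact permutation p = 0.393; rho = -0.39, p = 0.396), 0.17 without animals 2 and 4, and -0.83 within slide 4 (p = 0.0389, n = 6). Cyp1a2 and Ahr gave r = -0.15 in PB and -0.39 in control animals (exact permutation p = 0.762 and 0.452), with rho of -0.25 and -0.071 (p = 0.595 and 0.906). Cyp1a2 and Arnt gave r = 0.13 in PB and -0.63 in control animals (exact permutation p = 0.775 and 0.0885), with rho of 0.036 and -0.43 (p = 0.963 and 0.354). Without the same animals r with Ahr was 0.064 in PB and 0.43 in controls, and r with Arnt was 0.56 and -0.00039.

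**Figure D4:**
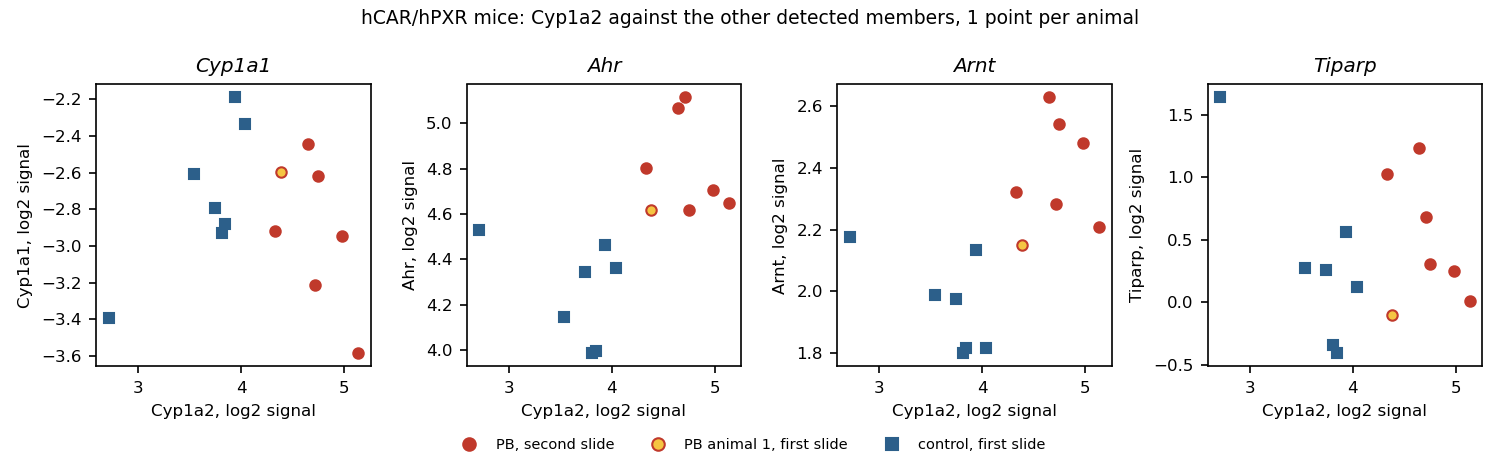
Each panel sets the log2 signal of Cyp1a2 (horizontal axis) against that of another member (vertical axis) in hCAR/hPXR mice, 1 point per animal. Circles are PB animals, the yellow one lying on the controls' slide, and squares are controls; the control at the far left (Cyp1a2 at 2.72) has the highest Tiparp value (1.64) and the lowest control Cyp1a1 value (-3.39).

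Likeness to Cyp1a2 over all 28 arrays was described by Pearson's r of log2 values centred on each strain's control mean, among 8197 genes well above background on every array. The points share array, slide and treatment. The 5 most alike were Prdx3, a mitochondrial peroxidase (0.95), Pla2g6, a phospholipase (0.94), Rpa1, a subunit of the single-strand DNA binding complex RPA (0.93), Cs, citrate synthase (0.92), and Thnsl2 (0.92). Ahr ranked 189 (0.80), Arnt 2174 (0.53) and Cyp2b10 2405 (0.51). Cyp1a1 and Tiparp were outside this ranking because they were not well above background on every array.

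Genes next to Cyp1a1 and Cyp1a2 were set beside them. Of 10 annotated genes within 100 kb, 8 were on the array and 7 were tested in each experiment. In C3H liver 0 of 7 passed (limma, lowest adjusted p = 0.0601), against 14.7% of all genes in either direction, which is near that share for so few genes. Their differences ran from -0.66 to 0.21, beside 2.04 for Cyp1a2 and 1.77 for Cyp1a1. In hCAR/hPXR liver 1 rose and 3 fell, against 35.0% and 23.2% of all genes: Scamp2 by 0.45, and Lman1l, Csk and Ulk3 by -1.41, -0.56 and -0.38. In CD-1 liver 0 of 7 passed (limma, lowest adjusted p = 0.084), against 7.98% of all genes, again near the share. These 4 neighbours were named after their values were seen.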

How the data were processed

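Per the file headers, the deposited scanner files hold 1-colour intensity values from Agilent Feature Extraction 10.7.3.1: each spot's processed signal, background-subtracted within its array. The authors' deposited series table holds log2 values of the same arrays, matched here for 55681 probes; set against the scanner values, they were the processed signals scaled by array to the 75th percentile, neither centred by gene nor turned, with array medians from -3.86 to -1.30. Here outlier spots were left out, replicate spots gave 1 mean log2 value per probe, and each array's 75th percentile over 55681 non-control probes was subtracted. No spot was saturated.

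Probes were named by unversioned RefSeq accession through the GRCm38.p6 gene table (26582 matched, and 29099 kept the accession or ID of the file), and each gene by its brightest probe over 28 arrays. A gene was tested where it was well above background on every array of 1 or more groups. Each strain had its own PB against control fit with limma 3.58.1 under R 4.3.3 (two-sided, Benjamini-Hochberg over all genes tested, threshold 0.05), and strains by interactions in 1 fit of all 28 arrays. Where a probe was below background in a whole group, folds are lower bounds against the higher of the probe's own signal and the dimmest probe marked well above background on each array. The correlations used exact two-sided permutation. The fitting was tested on simulated data. Alternatives were quantile normalization, normexp, the deposited log2 values, filters, probe choice, slide and replicate blocks, and leaving out each animal; fitting each probe on its own was chosen after seeing the data. Animals were labelled biological replicates.

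Members, lists and the naming rule (all members, Cyp2b10, Glul, up to 4 called genes per list by adjusted p, and the 5 genes most like Cyp1a2) were chosen with earlier results of these data known. Some genes first placed on the lists are not reported here. The number of arrays limits the precision. The labels do not pair animals by replicate number, and the values did not settle it for C3H mice. Same-numbered deviations correlated above 0.1 in 2 of 3 pairs of C3H, 2 of 7 of hCAR/hPXR and 0 of 4 of CD-1 mice. In C3H mice r ran from 0.04 to 0.18.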

Additional observations from a re-analysis of the deposited data

Results flagged for a closer look

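Among 28 sets of 1 member in 1 group of 4 or 7 animals, 1 animal stood far from the others: Cyp1a2 in hCAR/hPXR control animal 1 (2.7152), the lowest of 7. Its gap to the next animal was 0.624 of the group's range. Chance marks about 1 in 20 such groups. All 7 spots were well above background.

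In 6 cases the PB effect on a member differed between experiments by limma's interaction test over all arrays. For Cyp1a2 the difference was 1.1639 for hCAR/hPXR minus CD-1 and 2.1577 for C3H minus CD-1 (adjusted p = 0.0156 and 0.0014). For Ahr it was 1.9294 for C3H minus CD-1 and 1.7033 for C3H minus hCAR/hPXR (adjusted p = 0.00653 and 0.00916). For Cyp1a1 it was 1.9414 for C3H minus hCAR/hPXR (adjusted p = 0.00669), and for Arnt 0.8513 for hCAR/hPXR minus CD-1 (adjusted p = 0.00621). Slide lies within the CD-1 and hCAR/hPXR effects and its part was not tested in these contrasts.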

How the results depend on the processing

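Counting each reported value once under each alternative, 1469 kept their direction and side of the threshold, 117 lost and 14 gained a call, 25 moved and 34 turned sign. Cyp1a2 kept its call in C3H mice under every alternative run and in hCAR/hPXR mice under all but slide as a block and the fit within slide 3 (0.72 in both, adjusted p = 0.392 and 0.514). In CD-1 mice Cyp1a2 turned to 0.11 under quantile normalization and ran from -0.36 to 0.14 with 1 animal left out. The members called numbered 1 in CD-1 with normexp, 0 in hCAR/hPXR with slide as a block and within slide 3, 1 in C3H with dim probes tested, and 1 to 4 in C3H with 1 animal left out.

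The replicate block was fitted although the labels do not pair animals by number. With it Cyp1a2 gave 2.04 in C3H, 1.04 in hCAR/hPXR and -0.12 in CD-1 mice (limma adjusted p = 0.0239, 0.000653 and 0.884). The block ended the calls of Tiparp (adjusted p = 0.0544), Xdh, Htatip2 and Oat in C3H mice. It also ended those of Xdh and Slc13a3 in hCAR/hPXR and of Ncoa1 and Oat in CD-1 mice. Genes called numbered 1901 in CD-1 mice (1161 with the replicate block, 3802 with normexp, 6187 in 1 fit of all arrays), 11647 in hCAR/hPXR (440 with slide as a block, 251 within slide 3) and 2682 in C3H mice (612 with dim probes tested, 1543 with the replicate block). Leaving out 1 animal gave 935 to 2131 in CD-1 and 575 to 5389 in C3H mice. The share of CD-1 calls that were higher was 23.1%, and 33.7% under quantile normalization and 39.5% with normexp.

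Other signs turned as follows. Under quantile normalization these were Cyp1a1 (0.020) and Glul (-0.22) in hCAR/hPXR, the Ahr effect of hCAR/hPXR minus CD-1 (-0.35), the Tiparp effect of C3H minus CD-1 (-0.34), the control levels of Cyp1a2 for hCAR/hPXR minus CD-1 (-0.76) and of Cyp1a1 (0.17) and Arnt (-0.056) for C3H minus hCAR/hPXR, and r of Cyp1a2 with Arnt in PB animals (-0.12). With normexp they were Glul (-0.084) and Xdh (-0.058) in hCAR/hPXR, the same Ahr effect (-0.46), and the same control levels of Cyp1a2 (-0.78), Cyp1a1 (0.027) and Arnt (-0.069). Glul in hCAR/hPXR was -0.37 in the deposited value table and with outlier spots kept, and -0.0159 to 0.11 with 1 animal left out. With the mean of all probes the Tiparp effect of hCAR/hPXR minus CD-1 was 0.0082. With slide as a block and within slide 3 Cyp1a1 was 0.14, Tiparp -0.41, Glul -0.39 and Slc13a3 -0.15. With 1 animal left out, Ahr in CD-1 ran from -0.0072 to 0.47 and the Tiparp effect of C3H minus CD-1 from -0.12 to 0.21. The causes were not tested. Cyp1b1, Ahrr in 2 experiments and Cyp1a1 in CD-1 mice lay too near background to test PB against control within the experiment.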
